A study of Mus musculus with 2 samples.

Results

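The posterior genes of the HoxA and HoxD clusters were followed in the genital tubercle of the mouse, the bud of the embryo from which the penis or the clitoris forms. The set holds 9 genes taken by symbol, of 31053 genes counted: 4 from HoxA (Hoxa9, Hoxa10, Hoxa11 and Hoxa13) and 5 from HoxD (Hoxd9, Hoxd10, Hoxd11, Hoxd12 and Hoxd13). All 9 were found under their symbols, and the 30 other Hox genes counted served for comparison. The data are droplet single-cell RNA libraries of wild-type C57BL/6 embryos at embryonic day 14.5 (Theiler stage 22), 1 library of males and 1 of females, with no mutation or treatment in either. Each library was made from genital tubercles of 3 embryos pooled from 2 litters, held in cold medium for 2 hours while the sex of the embryos was typed, and then dissociated with collagenase. Because each sex has 1 pooled library, embryo, pool and sex cannot be told apart, no p-value was computed, and every interval given is a 95% interval that covers counting error only.

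Hox genes encode transcription factors with a homeodomain, and they lie in clusters in which the order of the genes along the chromosome follows the order of their domains along the body. Genes of the same number in different clusters are paralogues that arose by duplication of an ancestral cluster. The genes at the 5′ end, numbered 9 to 13, are known for their part in limbs and in the urogenital region, and in mice the loss of group 13 function of both Hoxa13 and Hoxd13 prevents the outgrowth of the genital tubercle. In this tissue, as in the limb, HoxD genes are controlled by distal enhancers that lie outside the cluster.

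In the mm10 annotation (GENCODE M21), the HoxA members lie on the minus strand of chromosome 6, from Hoxa13 (chr6:52257694-52260880) through Hoxa11 (chr6:52242106-52245810) and Hoxa10 (chr6:52231197-52240854) to Hoxa9 (chr6:52223100-52231089). On the plus strand of chromosome 2, the HoxD members run from Hoxd13 (chr2:74668310-74671599) through Hoxd12 (chr2:74675013-74677705), Hoxd11 (chr2:74679557-74687016) and Hoxd10 (chr2:74691924-74695105) to Hoxd9 (chr2:74697727-74700208). No other counted gene overlapped a member. The annotated antisense gene Hoxa11os overlaps Hoxa11 and was not among the genes counted, and no source used here says whether the counting used the strand. The homeobox, the stretch that encodes the DNA-binding homeodomain, was read for the 7 members of groups 10 to 13, in each of which it lay in the last of 2 exons and spans 180 bases. Those of the group 13 paralogues are shown in coding direction because they carry the relation on which the pairing of genes across the clusters rests, with capitals at the bases that differ between the paralogues (chr6:52258928-52259107, minus strand, for Hoxa13; chr2:74669930-74670109, plus strand, for Hoxd13).
Hoxa13: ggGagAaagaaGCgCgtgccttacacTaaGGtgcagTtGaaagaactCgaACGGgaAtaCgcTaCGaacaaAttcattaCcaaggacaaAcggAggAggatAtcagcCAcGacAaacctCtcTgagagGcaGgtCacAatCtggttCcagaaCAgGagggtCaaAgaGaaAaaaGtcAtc
Hoxd13: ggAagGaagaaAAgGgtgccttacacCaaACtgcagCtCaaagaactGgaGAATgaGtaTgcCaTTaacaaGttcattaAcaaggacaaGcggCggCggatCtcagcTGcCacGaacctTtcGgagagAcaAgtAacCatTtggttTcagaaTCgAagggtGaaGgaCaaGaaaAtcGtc
The Hoxa13 and Hoxd13 homeoboxes shared 133 of 180 bases (73.9%), while Hoxa11 and Hoxd11 shared 80.6% and Hoxa10 and Hoxd10 shared 78.9%. Pairs within a cluster shared less: the 9 such pairs had a median of 59.4% (55.6% to 67.8%), against a median of 78.9% for the 3 paralogue pairs.

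The counts are unique molecular identifiers (UMIs), each standing for 1 captured transcript end. Barcodes were kept as cells with at least 2000 UMIs, at least 500 genes and at most 10% of UMIs from mitochondrial genes, which left 17254 male and 18711 female cells with medians of 5169.5 and 5242 UMIs. Clustering without Hox genes placed 16403 male cells (95.1%) and 18118 female cells (96.8%) in mesenchyme-like clusters, with Twist1 at 954 and Prrx1 at 598 CPM (UMIs of the gene per 1000000 UMIs of all cells of the class). Of the male cells, 82 had a barcode that was also kept in the female library (0.475%). Free RNA was read from barcodes with 100 or fewer UMIs. Haemoglobin UMIs, which mesenchyme does not make, put the share of free RNA in mesenchyme-like cells at 8.40% for males and 12.4% for females. Free RNA also carried the members, for instance Hoxd13 at 146 and 161 CPM. Over both libraries its level was near that of mesenchyme for Hoxd10 (26.0 against 26.6 CPM) and Hoxa9 (48.9 against 47.7). It was lower for Hoxa13 (70.1 against 90.3), Hoxd12 (51.1 against 65.1) and Hoxa11 (9.40 against 13.6). The automatic doublet call marked 9.62% of male and 14.6% of female cells, and these were kept.

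In mesenchyme-like cells the levels did not follow the order of the genes in either cluster. Among HoxA genes the highest was Hoxa10, with 182 CPM in males and 187 in females, followed by Hoxa13 with 92.2 and 88.7. Hoxa9, the member nearest the 3′ end, had 45.0 and 49.9 CPM, and Hoxa11, which stands between Hoxa13 and Hoxa10 on the chromosome, was lowest with 13.8 and 13.5. The trough at Hoxa11 was therefore present in both libraries, and its level was under that of each flanking gene by far more than the counting error.

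Among HoxD genes, Hoxd13 at the 5′ end was highest, with 166 CPM in males and 183 in females. Hoxd12 had 66.3 and 64.1 CPM, below Hoxd11 with 109 and 110.5, so that the second gene of the row was lower than both of its neighbours. Hoxd10 followed with 26.2 and 27.0 CPM, and Hoxd9 was close to absent with 1.76 and 1.45. The row thus fell toward the 3′ end with 1 step out of order. The 2 clusters had different members on top, group 10 in HoxA and group 13 in HoxD, in both libraries. Each UMI stands for 1 transcript end, so the counts were not divided by gene length, but capture efficiency and the annotation of transcript ends can differ between genes, and the order between genes holds only for what was captured.

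Expressed as the share of cells with at least 1 UMI after each cell had been thinned to 2000 UMIs, the order was nearly the same. Hoxa10 was detected in 29.9% and Hoxd13 in 28.4% of mesenchyme-like cells, Hoxd11 in 19.0%, Hoxa13 in 16.5% and Hoxd12 in 12.6%. Hoxa9 was found in 8.89%, Hoxd10 in 5.05%, Hoxa11 in 2.62% and Hoxd9 in 0.31% of cells. Without thinning the shares were higher for every member, at 59.1% for Hoxa10 and 56.7% for Hoxd13. As a background, 69 erythroid-like cells that did not mix with mesenchyme, a cell type taken here to lack Hox transcripts, had Hoxd11 in 2 thinned cells (2.90%), Hoxa9 and Hoxd13 in 1 each (1.45%) and the other 6 members in none, which allows up to 4.35%. The shares of Hoxa11 and Hoxd9 in mesenchyme-like cells lie under that limit, so at this depth they could not be told from background by shares alone. Hoxd10 at 5.05% lies above that limit but under 5.21%, the exact binomial upper bound for its absence from the 69 cells. The same therefore holds for its share. By summed level, mesenchyme-like cells had 26.6 CPM of Hoxd10 and 13.6 of Hoxa11. Both exceed 6.52 CPM, the upper Poisson bound for no UMI in the 69 cells, whereas Hoxd9 at 1.59 CPM does not.

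**Figure D1:**
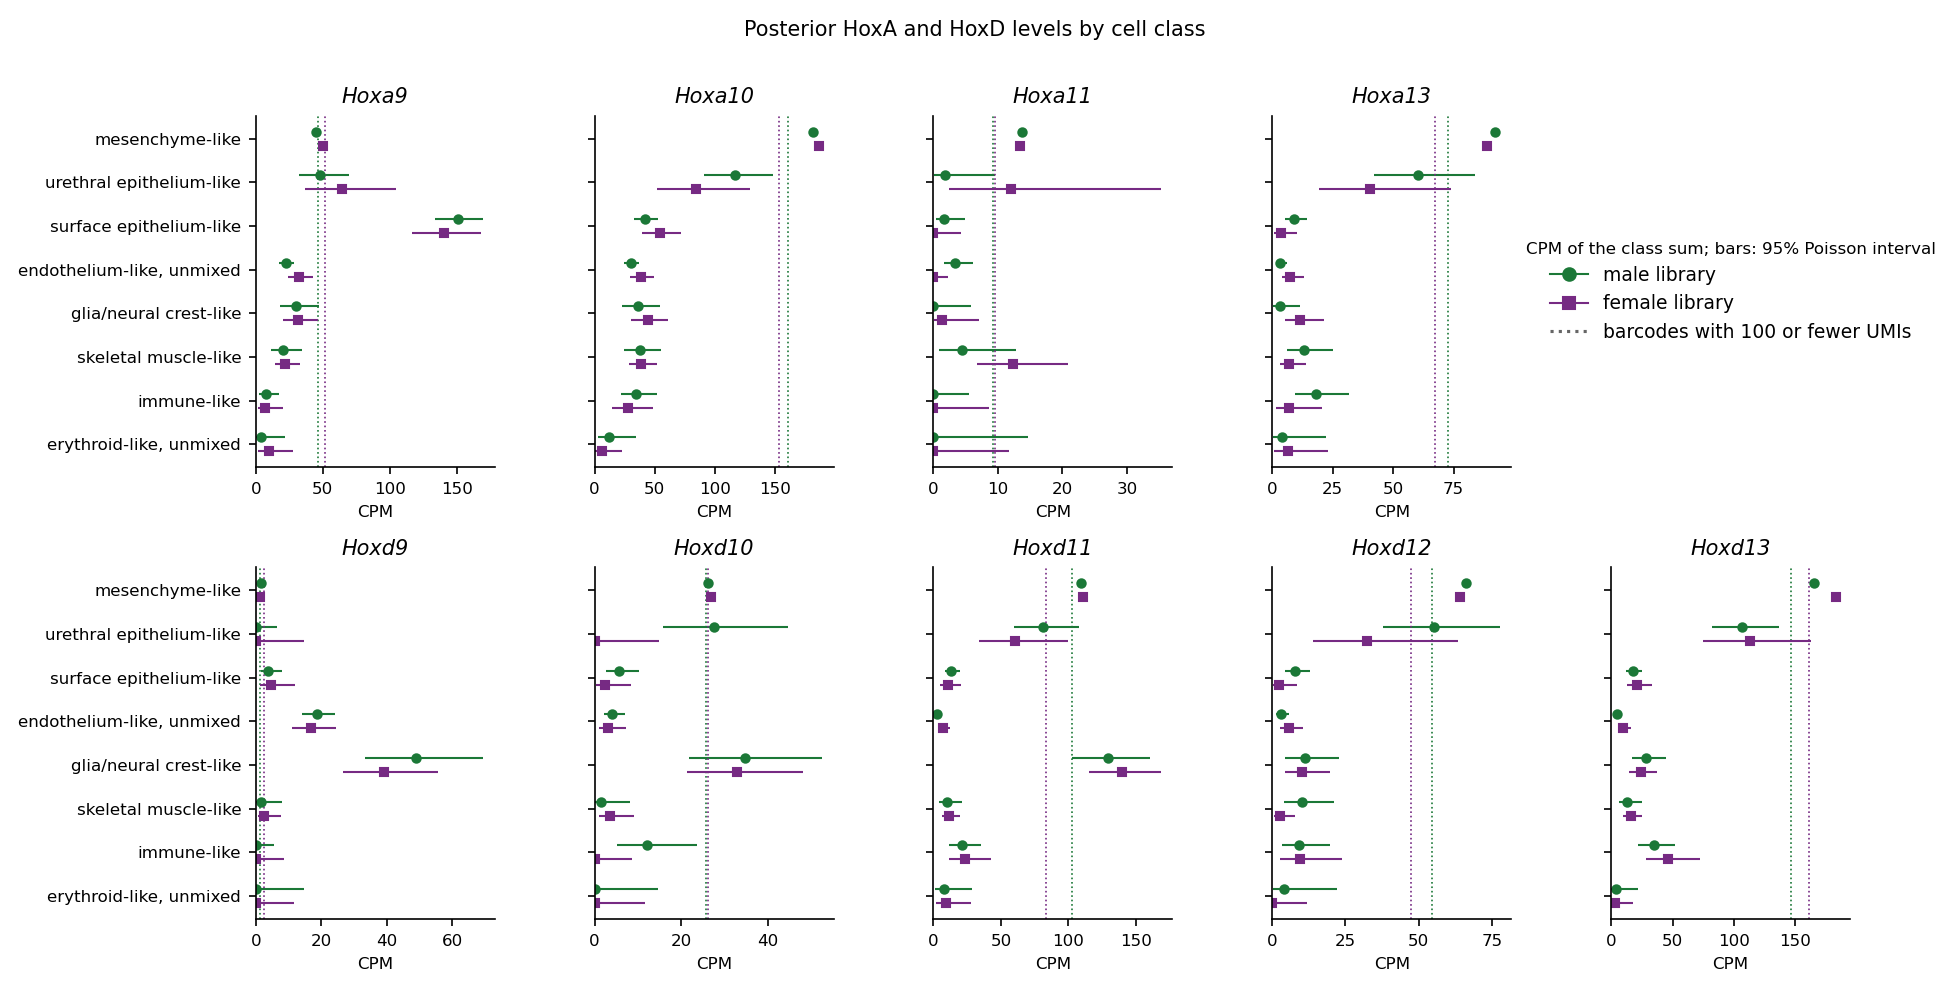
Level of each of the 9 genes (CPM, linear axis of its own for each gene) by cell class, with the male library as circles, the female library as squares, 95% Poisson intervals for counting error as bars and the level in barcodes with 100 or fewer UMIs as dotted lines. Hoxa9 sits highest in surface epithelium-like cells (150.5 and 140.3), Hoxd9 in glia and neural crest-like cells (48.9 and 39.1), and Hoxa10, Hoxa13, Hoxd12 and Hoxd13 in mesenchyme-like cells.

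Urethral epithelium-like cells, marked by Shh at 273 CPM against 0.242 in mesenchyme and by Krt8 at 596, line the future urethra and derive from endoderm. Only 40 male and 27 female cells fell in this class. They carried both group 13 genes: Hoxa13 had 60.3 CPM in males and 40.3 in females, and Hoxd13 had 107 and 113. Hoxa10 was at 117 and 84.5 CPM, Hoxd11 at 80.9 and 60.4, and Hoxd12 at 55.1 and 32.2. Hoxa9 had 48.2 and 64.4 CPM and was the only member whose pooled level was above that of mesenchyme (1.11-fold). Hoxd10 had 27.5 CPM in males and no UMI in females, and Hoxd9 had no UMI in either library, which allows up to 3.62 CPM over both. Male and female intervals overlapped for every member except Hoxd10.

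None of the 9 members was at least 2-fold higher in urethral epithelium-like than in mesenchyme-like cells, against 8.26% of all genes tested. At least 2-fold lower was 1 member, Hoxa11, against 12.0% of genes, and it rested on 4 UMIs. The 7 mesenchyme markers in these cells summed to 12.3% of their mesenchyme level in males and 7.13% in females, whereas the group 13 genes stood at 60.1% (Hoxa13) and 62.0% (Hoxd13) of theirs. With free RNA subtracted the levels were 52.3 CPM for Hoxa13 and 104 for Hoxd13, close to the pooled 54.3 and 109.

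In surface epithelium-like cells, the ectodermal cover marked by Krt14 (2057 CPM) and Krt5 (1062), the HoxA genes were ordered otherwise than in mesenchyme. Hoxa9 had 150.5 CPM (133 to 169) in the 142 male cells and 140.3 (116 to 168) in the 79 female cells, from 272 and 119 UMIs. This was 3.09-fold the mesenchyme level, a log2 ratio of 1.63 (1.48 to 1.77). The other 3 HoxA members were lower than in mesenchyme: Hoxa10 had 42.1 and 54.2 CPM, Hoxa13 had 8.85 and 3.54, and Hoxa11 had 1.66 and 0. Hoxa9 was present after thinning in 30.8% of these cells, and each of the 4 sub-clusters of the class had it at 87.0 to 159 CPM. The mesenchyme markers of 3 of these sub-clusters summed to only 3.73% to 4.51% of their mesenchyme level, and one of the 3 had the 159 CPM.

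HoxD genes were low in the same cells, with Hoxd13 at 17.7 CPM in males and 21.2 in females, Hoxd11 at 13.3 and 10.6, and Hoxd12 at 7.75 and 2.36. Hoxd10 had 5.53 and 2.36 CPM. Hoxd9 had 3.87 and 4.71, which was 2.60-fold the mesenchyme level but came from 7 and 4 UMIs. Thus 2 members, Hoxa9 and Hoxd9, were at least 2-fold higher than in mesenchyme, against 7.97% of all genes, and the other 7 were at least 2-fold lower, against 14.0%. Mesenchyme markers summed to 10.6% of their mesenchyme level here. After free RNA was subtracted, Hoxa9 was at 157 CPM, while Hoxd13 was left with 4.50, Hoxd11 with 3.61 and Hoxa13 with 2.07 CPM. For these 3 genes, most of the level in this class was thus within the free RNA estimate.

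Endothelium-like cells, marked by Cdh5 at 959 CPM, were described without 1 sub-cluster that mixed mesenchyme and endothelial transcripts, which left 162 male and 94 female cells. Hoxd9 had 18.7 CPM (14.1 to 24.3) in males and 16.8 (11.1 to 24.5) in females, 11.3-fold its level in mesenchyme, from 56 and 27 UMIs. With the mixed sub-cluster included the ratio was 10.9. Both remaining endothelial sub-clusters had Hoxd9, at 22.5 and 15.4 CPM. Hoxa10 was at 30.1 and 38.7 CPM and Hoxa9 at 22.7 and 32.4, which were 0.179 and 0.548 of their mesenchyme levels. The 5′ genes were lower still: Hoxa13 had 3.34 and 7.49 CPM, Hoxd13 had 4.68 and 9.98, and Hoxd11 had 2.34 and 6.86. At least 2-fold higher than in mesenchyme was 1 member, Hoxd9, against 12.2% of genes, and at least 2-fold lower were 7, against 22.5%. Mesenchyme markers summed to 4.73% of their mesenchyme level over both libraries, close to the 5.30% found for Hoxa13 and the 3.73% for Hoxd13.

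Glia and neural crest-like cells, marked by Foxd3 (522 CPM) and Sox10 (179), numbered 54 in males and 65 in females. Hoxd9 reached its highest level of any class here, with 48.9 CPM in males and 39.1 in females from 31 UMIs each, 27.3-fold mesenchyme (log2 4.77, 4.36 to 5.16). Hoxd11 was at 129 and 140 CPM, a pooled 1.23-fold of the mesenchyme level (log2 0.30, 0.09 to 0.50). Hoxd10 had 34.7 and 32.8 CPM, and its ratio of 1.26 could not be told from 1 at this depth (log2 interval -0.10 to 0.75). The HoxD genes on the 5′ side of this stretch were lower than in mesenchyme: Hoxd13 had 28.4 and 24.0 CPM (0.148 of mesenchyme) and Hoxd12 had 11.0 and 10.1.

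HoxA genes were all below mesenchyme in glia and neural crest-like cells, with Hoxa10 at 36.3 and 44.1 CPM, Hoxa9 at 30.0 and 31.5, Hoxa13 at 3.15 and 11.4, and Hoxa11 at 0 and 1.26. At least 2-fold higher was 1 of 9 members, Hoxd9, against 8.53% of genes, and at least 2-fold lower were 5, against 10.5%. Mesenchyme markers summed to 23.4% of their mesenchyme level in this class, and single markers ranged from 10.2% to 48.2%. Hoxd11 exceeded its mesenchyme level, so it lay above that whole range, while Hoxd13 at 14.8% lay within it.

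The remaining classes were small. In 37 male and 65 female skeletal muscle-like cells Hoxa11 had 4.39 and 12.4 CPM (3 and 14 UMIs), 0.689 of its mesenchyme level, whereas Hoxd13 had 13.2 and 16.0, and after subtraction of free RNA Hoxa11 had 9.34 and Hoxd13 had 0.37 CPM. Immune-like cells (67 and 42) had Hoxd13 at 34.6 and 46.6 CPM and no UMI of Hoxa11 or Hoxd9. Mesenchyme-like cells had Hoxd13 at 166 and 183 CPM, and mesenchyme markers in immune-like cells summed to 23.0% of their mesenchyme level. Whether immune-like cells make Hoxd13 themselves was not tested. In the 28 male and 41 female erythroid-like cells free of the mixed sub-clusters, each member had at most 3 UMIs per library. A smooth muscle-like class had 185 male cells and 1 female cell, with Hoxd13 at 37.8 and Hoxa13 at 35.6 CPM in males, and was not compared between libraries. Its markers Acta2 (1927 CPM against 19.4 in mesenchyme) and Tagln (1315 against 18.2) were high, but Myh11 was not (6.01 against 7.21). Mesenchyme markers in its sub-clusters summed to 147% and 316% of their mesenchyme level, so each was past the limit for a mixed sub-cluster. Whether smooth muscle cells themselves have these Hox levels was not tested. A further 35 cells, led by Cma1 and Cpa3, stayed unnamed.

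The make-up of each cluster's transcripts shows the same contrast without the overall level. In mesenchyme-like cells 26.9% of the 73553 HoxA UMIs were Hoxa13, 4.12% Hoxa11, 54.9% Hoxa10 and 14.2% Hoxa9. Urethral epithelium-like cells had almost this make-up, with 24.7% Hoxa13 (18.6% to 31.7%) and 48.9% Hoxa10. In surface epithelium-like cells 74.1% of HoxA UMIs in males and 70.8% in females were Hoxa9, and 3.55% over both were Hoxa13. Endothelium-like and glia and neural crest-like cells had intermediate shares of Hoxa9, at 39.5% and 38.6%, and larger shares of Hoxa10, at 50.0% and 50.9%. Free RNA had 24.6% Hoxa13 and 17.1% Hoxa9, which is close to mesenchyme.

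Of the 82768 HoxD UMIs of mesenchyme-like cells, 46.3% were Hoxd13, 17.2% Hoxd12, 29.1% Hoxd11, 7.04% Hoxd10 and 0.42% Hoxd9. In endothelium-like cells Hoxd9 made up 57.1% (46.7% to 67.1%) of HoxD UMIs in males and 39.7% (28.0% to 52.3%) in females. In glia and neural crest-like cells the largest part was Hoxd11, at 51.2% in males and 56.9% in females, with 17.5% Hoxd9 over both. In the counts as deposited, the largest part of the HoxD UMIs was thus group 13 in mesenchyme and urethral epithelium-like cells, group 11 in glia and neural crest-like cells and group 9 in endothelium-like cells. In surface epithelium-like cells it was also group 13 (41.0%), but subtraction of free RNA left Hoxd13 (4.50 CPM), Hoxd9 (4.39) and Hoxd11 (3.61) at nearly the same level.

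**Figure D2:**
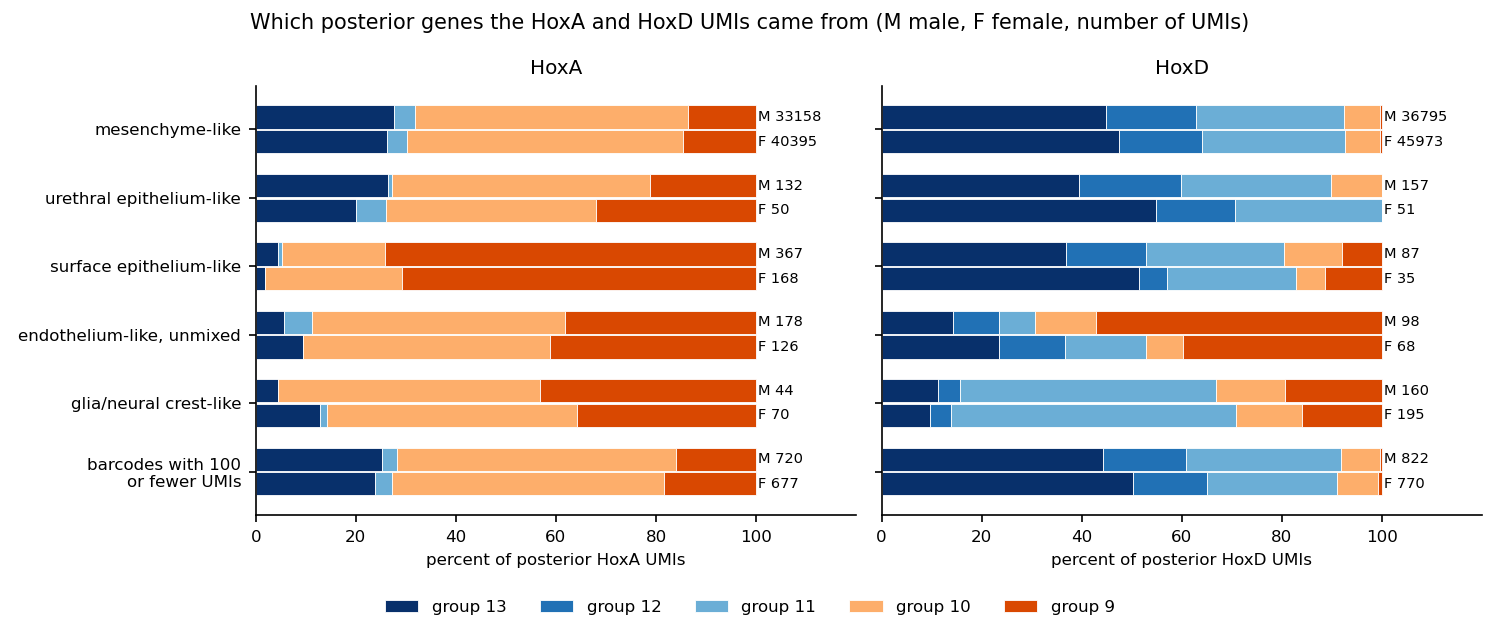
Share of each gene group in the HoxA UMIs (left) and in the HoxD UMIs (right), as percent of the member UMIs of the cluster, for each cell class and for barcodes with 100 or fewer UMIs, with 1 stacked bar per library (M male, F female) and the number of UMIs beside it. Hoxa9 fills 74.1% and 70.8% of the HoxA bars in surface epithelium-like cells, and Hoxd9 fills 57.1% and 39.7% of the HoxD bars in endothelium-like cells.

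Within the mesenchyme, 18 clusters were joined into 8 domains, each called by genes that mark it and not by a position in the tubercle. Domains came from clusters made without Hox genes, so the members did not define them, and 3226 cells of 2 clusters fell in no domain. Hoxa13 varied most. It had 158 CPM in males and 178 in females in the Aldh1a2 and Tcf21 domain, 128 and 123 in the Msx1, Msx2 and Dlx5 domain, and 122 in each library in the Dlx2, Runx1 and Sp9 domain. The Ogn, Foxf1 and Npnt domain (121 and 112 CPM) overlapped with those just above it, and the Foxd1, Sall3 and Lbx2 domain followed with 101 and 103. Hoxa13 was lower in the Scx, Sox9 and Col9a1 domain (62.7 and 66.6 CPM) and in the Rprm, Pcdh10 and Spock3 domain (60.1 and 57.8), and lowest in the Sim1, Tbx15 and Agtr2 domain (32.8 and 38.5). The highest level was 4.61-fold the lowest, and the male and female libraries alone gave 4.82 and 4.64. Hoxa13 was the 1 member of 9 past 4-fold between domains, against 16.8% of the 13338 genes compared, so the share of members was near the background. The median ratio over members was 2.10, against 1.70 over all genes.

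Its paralogue Hoxd13 was spread more evenly, with a highest to lowest ratio of 1.79. Hoxd13 had 212 CPM in males and 242 in females in the Ogn domain, 207 and 236 in the Msx1 domain and 196 and 212 in the Rprm domain, and neighbours in this order had intervals that overlapped in at least 1 library. It was lowest in the Aldh1a2 domain (133 and 129 CPM) and in the Sim1 domain (118 and 133). The 2 group 13 genes therefore shared the low Sim1 domain but differed in the Aldh1a2 domain, where Hoxa13 was at its highest and Hoxd13 at its next to lowest, and in the Rprm domain, where Hoxd13 was high and Hoxa13 low.

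The other HoxD members had their highest levels in the Msx1 or Ogn domains, except Hoxd9. Hoxd12 had 89.5 CPM in males and 92.6 in females in the Ogn domain and 44.0 and 44.3 in the Sim1 domain (2.06-fold). Hoxd11 was at 133 and 145 CPM in the Msx1 domain, and a step separated the 5 higher domains from the Aldh1a2 (62.7 and 74.5), Sim1 (69.6 and 66.4) and Scx domains (60.3 and 72.4). The Aldh1a2 domain was thus high for Hoxa13 and low for Hoxd11. Hoxd10 ranged from 30.3 and 37.7 CPM in the Ogn domain to 16.7 and 17.3 in the Sim1 domain. Hoxd9 had 54 and 50 UMIs in the Foxd1 domain, 2.59 and 2.01 CPM, the highest level in males and over both libraries, whereas in females the Dlx2 domain was highest at 2.27, and intervals of neighbouring domains overlapped.

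Among the other HoxA members, Hoxa10 was highest in the Msx1 domain, at 237 CPM in males and 244 in females, and stood at 109 and 126 in the Sim1 domain and at 122 and 108 in the Rprm domain. Hoxa9 had a similar order, from 62.7 and 65.4 CPM in the Dlx2 domain to 31.0 and 35.2 in the Rprm domain. Hoxa11 had an order of its own. It was highest in the Foxd1, Sall3 and Lbx2 domain, at 24.1 and 25.1 CPM, and its levels in the other 7 domains lay between 7.30 and 17.1 CPM per library, with intervals between neighbours that overlapped in at least 1 library.

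**Figure D3:**
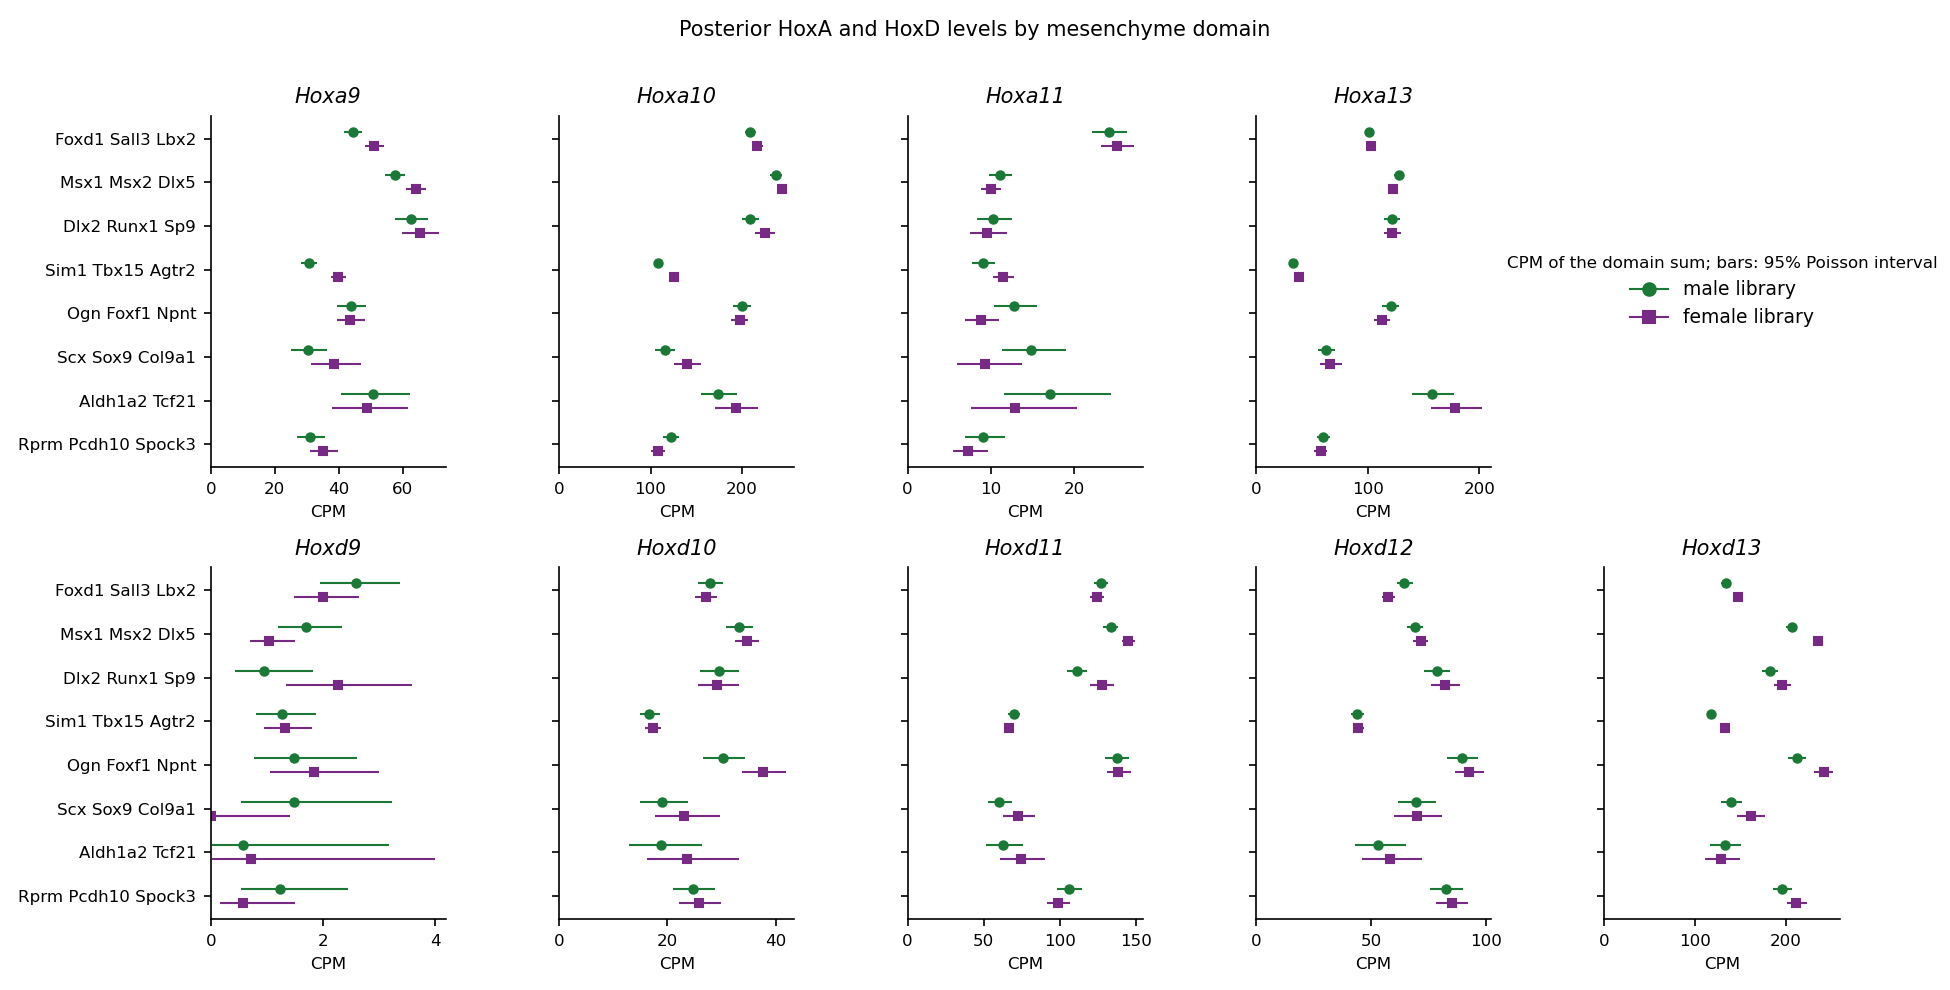
Level of each of the 9 genes (CPM, linear axis of its own for each gene) in the 8 mesenchyme domains, with the male library as circles, the female library as squares and 95% Poisson intervals for counting error as bars. Hoxa13 runs from 32.8 and 38.5 CPM in the Sim1 domain to 158 and 178 in the Aldh1a2 domain, while Hoxd13 runs only from 118 and 133 to 212 and 242.

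The domain means concealed differences between single clusters, a comparison chosen after the data had been seen. Within the Sim1 domain, the cluster led by Sim1, Vax2os and Igf1 (2247 cells) had Hoxd13 at 43.2 CPM in males and 47.3 in females, the lowest of 18 clusters, whereas the cluster led by Tk1 and Slfn9, which are genes of dividing cells, had 150 and 173. Hoxa13 was at 12.8 and 16.9 CPM in the first and at 44.3 and 54.5 in the second. Hoxd12, Hoxd11 and Hoxd10 were also at their lowest in that first cluster, with 28.7, 42.8 and 10.3 CPM over both libraries. The third cluster of the domain, led by Ube2c and Ccnb1, had Hoxa13 at 35.3 and 35.7 CPM and Hoxd13 at 143 and 155. Hoxa13 was thus below its median over clusters of 97.6 CPM in all 3 clusters of the Sim1 domain, while Hoxd13 was far below its median of 173 only in the first.

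The Rprm domain was split in another way. Its cluster led by Col14a1 and Dcn (1242 cells) had Hoxa13 at 24.3 CPM in males and 25.3 in females but Hoxd13 at 222 and 231, above that median. The cluster led by a (the agouti gene) and Rprm had Hoxa13 at 100 and 90.0 and Hoxd13 at 167 and 193. Within 1 domain the HoxA genes Hoxa13, Hoxa10 and Hoxa9 were therefore lower in the first cluster while Hoxd13 and Hoxd12 were higher there. A cluster led by Nefm and Nefl in the Foxd1 domain had the highest Hoxa11, 30.8 and 35.5 CPM, together with Hoxd13 at 90.3 and 76.5. Over single clusters the highest to lowest ratio was 10.9 for Hoxa13, 5.28 for Hoxd13, 5.26 for Hoxa11 and 6.42 for Hoxd9, so that 4 of 9 members passed 4-fold in place of 1. Over single clusters 26.9% of all genes passed it. The Hoxd9 ratio rested on 348 UMIs over all mesenchyme-like cells, with 0.55 CPM in its lowest cluster and 3.56 in its highest.

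The ratios also moved with the processing. For Hoxa13 the ratio was 10.1 when the highest doublet scores had been left out, 9.49 when Hox genes were allowed in the clustering and 8.15 at the finer resolution. Hoxd13 had ratios of 2.49, 3.40 and 3.05 under the same settings. In all of them Hoxa13 varied more than Hoxd13.

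The patterns over the 18 mesenchyme clusters were compared with Pearson's r on the log2 levels, a description over clusters that share 2 libraries. Among neighbours within a cluster, r was 0.95 for Hoxd11 and Hoxd10, 0.90 for Hoxa10 and Hoxa9, 0.81 for Hoxd13 and Hoxd12 and 0.66 for Hoxd12 and Hoxd11. It was lower for the neighbours Hoxa11 and Hoxa10 (0.51), Hoxd10 and Hoxd9 (0.37) and Hoxa13 and Hoxa11 (0.33). Across Hoxa11, the pair Hoxa13 and Hoxa10 had 0.89. Between the paralogues Hoxa13 and Hoxd13 it was 0.45, and the other paralogues had 0.78 (Hoxa10 and Hoxd10), 0.32 (Hoxa9 and Hoxd9) and 0.17 (Hoxa11 and Hoxd11). Pairs of different number across the clusters ran from -0.38 (Hoxa11 and Hoxd13) to 0.82 (Hoxa13 and Hoxd10), so high values were not confined to pairs within a cluster. For Hoxa11, r to the other members ran from -0.38 (Hoxd13) to 0.58 (Hoxd9, which had few UMIs), and among Hox genes with at least 1000 UMIs the one most like it was Hoxa5 at 0.57. Outside the Hox genes, the patterns most like Hoxa11 were those of Lbx2 (0.91), which is one of the genes that name the Foxd1 domain, Ets2 (0.88) and Tmsb4x (0.86). Hoxd11 was most like Lnpk (0.87), the gene next to Evx2 beside the HoxD cluster, then Frzb (0.84) and Scrn1 (0.80), and Lnpk also led for Hoxd10 (0.84) with Cited1 (0.84) and Bmp7 (0.83).

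Hoxa13 was most like Rnft1 (0.90), Cxxc4 (0.89) and Ttc32 (0.89), and Hoxd13 most like Ebp (0.81), Slc6a8 (0.79) and Tbx2 (0.78). For Hoxa10 the nearest were Eva1a (0.87), Cux1 (0.86) and Sall1 (0.85), for Hoxa9 Yaf2 (0.84), Smarcd1 (0.81) and Cpsf6 (0.81), and for Hoxd12 Rin2 (0.80), Cited1 (0.77) and Palm2 (0.76). Only Lnpk and Cited1 stood on more than a single list. The lists of Hoxa13 and Hoxd13 shared no gene, but neither did those of Hoxa10 and Hoxa9, whose r was 0.90. Lists this short therefore do not show whether the paralogues differ in their nearest genes. Hoxd9 had too few UMIs for a list of nearest genes.

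Co-detection was read in the 34521 mesenchyme-like cells after thinning to 2000 UMIs. A cell held on average 1.23 of the 9 members (1.22 to 1.25), 1.22 in males and 1.25 in females, and without thinning the mean was 2.74. At least 1 member was found in 72.2% of cells and at least 4 in 2.79%. No member was found in 27.8%, against 26.1% if the members were detected independently within each domain and library, and 4 were found in 2.38%, against 1.94%. Both ends of the distribution were thus fuller than independence gives. By domain the mean ran from 0.676 in males and 0.761 in females in the Sim1 domain to 1.49 and 1.56 in the Msx1 domain.

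A HoxA member was found in 46.5% of cells, a HoxD member in 50.2%, and both kinds in 24.6%. The group 13 paralogues Hoxa13 and Hoxd13 were found together in 1854 cells (5.37%). Of the cells with Hoxa13, 32.5% also had Hoxd13, and of those with Hoxd13, 18.9% had Hoxa13. Independence within domains and libraries gave 1711 cells, a ratio of observed to expected of 1.08 (1.03 to 1.13), and the ratio was 1.08 in each library. Without strata it was 1.14. Split by domain, the ratio was 1.49 (1.02 to 2.10) in males and 1.77 (1.34 to 2.29) in females in the Sim1 domain, and the intervals of the other 14 combinations of domain and library included 1. The Sim1 domain joins clusters with unlike levels of both genes, as described above, and the expected number used 1 share for the whole domain. Whether this moved the ratio of the Sim1 domain was not tested.

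The other paralogue pairs had ratios of 0.95 (0.81 to 1.11) for Hoxa11 and Hoxd11, 1.08 (0.99 to 1.17) for Hoxa10 and Hoxd10 and 0.86 (0.37 to 1.69, 8 cells) for Hoxa9 and Hoxd9. Over all 36 pairs, 13 intervals lay above 1 and none below. Among the 4 paralogue pairs 1 lay above 1 and their median was 1.01. Among the 7 pairs of neighbours in a cluster 4 lay above 1, with a median of 1.12, and among the 9 more distant pairs of a cluster 5 did, also with a median of 1.12. The 16 pairs of different number in different clusters had a median of 1.02, with 3 above 1. Pairs of the same cluster thus had the higher medians, though the difference between the kinds of pair was small and was not tested. In females alone the median was 1.08 for paralogues, 1.15 for neighbours and 1.11 for more distant pairs of a cluster. In males alone these medians were 1.00, 1.08 and 1.10.

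Single pairs show the size of these ratios. Hoxd11 and Hoxd10, adjacent on the chromosome, had 1.17 (1.06 to 1.29), Hoxd13 and Hoxd12 had 1.13 and Hoxa13 and Hoxa10 had 1.12. The highest ratio was that of Hoxd11 and Hoxd9, 1.56, from 32 cells. Hoxa13 and Hoxd10, in different clusters, had 1.22 (1.10 to 1.35), with 1.29 in males and 1.16 in females. For Hoxa13 and Hoxd13 the ratio was 1.08 with single clusters in place of domains as strata and 1.08 without the cells of the highest doublet scores. Whether differences in RNA content between cells move these ratios was not tested.

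**Figure D4:**
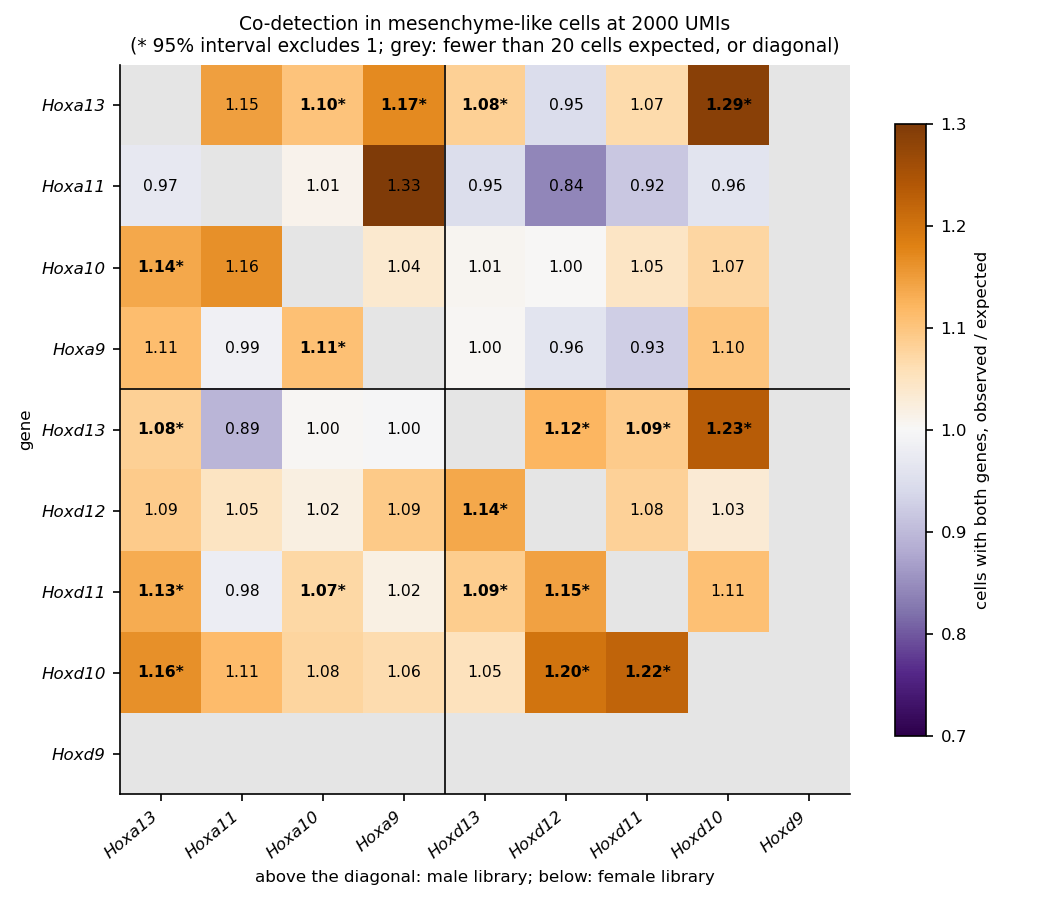
Observed over expected number of mesenchyme-like cells with both genes of a pair (colour and printed value, each cell thinned to 2000 UMIs, strata of domain and library), with the male library above and the female library below the diagonal, an asterisk where the 95% Poisson interval excludes 1, and grey for pairs with fewer than 20 expected cells. Hoxa13 and Hoxd13 have 1.08 in both libraries, and the pairs within HoxD on the lower right are mostly above 1.

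Between the male and the female library the members differed little in mesenchyme-like cells. The largest ratio was that of Hoxd9, with a log2 of male over female of 0.27 (-0.04 to 0.59), the 1 member past 1.2-fold either way, against 12.6% of all genes, and its interval included 0. Hoxd13 was lower in males by a log2 of -0.14 (-0.17 to -0.11) and Hoxa9 by -0.15 (-0.20 to -0.09). Hoxa13 was at 0.06 (0.01 to 0.10), Hoxa10 at -0.04 (-0.07 to -0.01) and Hoxa11 at 0.03 (-0.07 to 0.14). Over the 9 members the median was -0.01, and over 13429 genes it was -0.02.

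The intervals of 5 of 9 members excluded 0, against 49.6% of all genes, so the share of members was near the background. These intervals hold no variation between embryos or pools. By domain, Hoxd13 was lower in males in 7 of 8, with intervals below 0 in those 7, and its log2 ratio ran from -0.21 to 0.04. The domains come from the same libraries and are not replicates, and the share of all genes with such a count is not given here. The direction was not particular to Hoxd13. Hoxd12 was also lower in males in 7 of 8 domains, with 0 intervals below 0 and 1 above. Its ratio over all mesenchyme-like cells went the other way, at a log2 of 0.05 (0.0005 to 0.10). Hoxa9, Hoxa10 and Hoxd10 were each lower in males in 6 of 8 domains, with 3, 3 and 1 intervals below 0. Hoxa13 had no common direction, with 3 domains higher and 5 lower in males, and with the domains weighted alike its log2 ratio was -0.04 in place of 0.06. Hoxa11 moved from 0.03 to 0.22 under the same weighting. The cell numbers of the domains differed between the libraries as well, for instance 2289 male and 3363 female cells in the Sim1 domain.

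**Figure D5:**
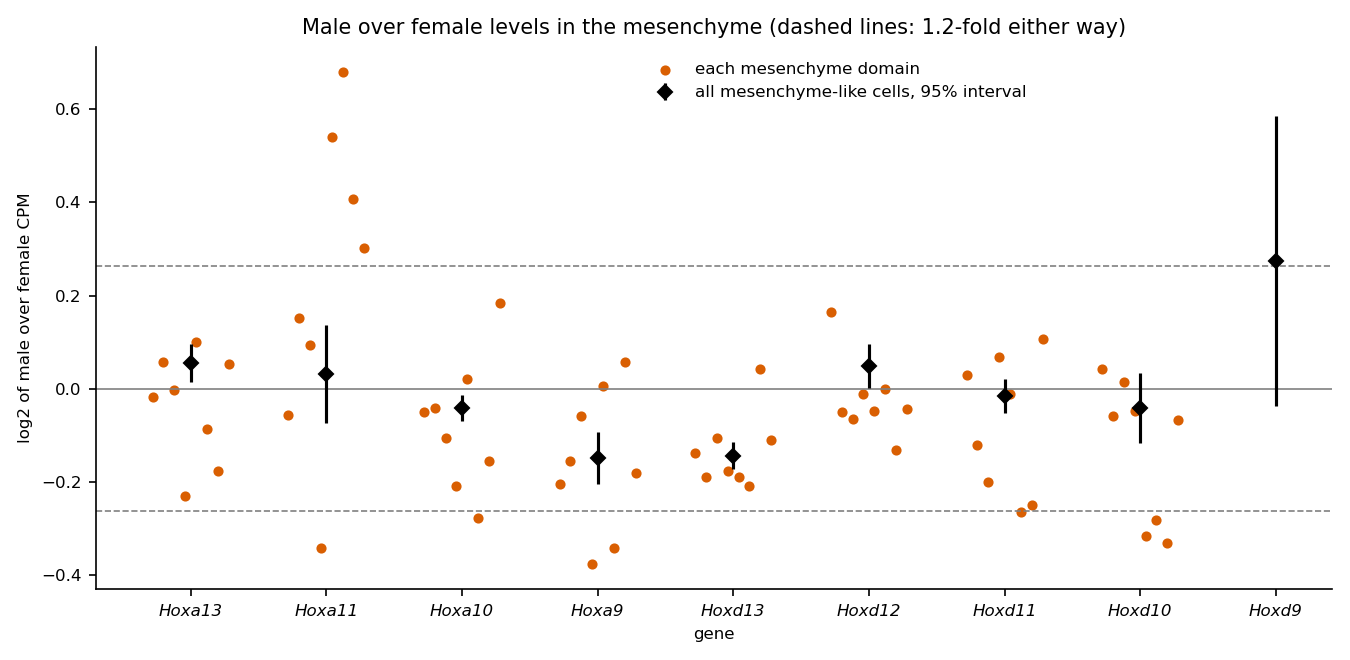
Log2 ratio of male over female CPM of each of the 9 genes, as diamonds with 95% conditional intervals for counting error in all mesenchyme-like cells and as small points for the single domains (not drawn for Hoxd9, which had too few UMIs per domain), with dashed lines at 1.2-fold. The pooled ratios lie between -0.15 and 0.27, and the domain points of Hoxd13 and those of Hoxd12 each lie below 0 in 7 of 8 domains.

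Genes that flank or work with the members were read from fixed lists, and named by the size of their ratio between domains. Of 12 neighbours of the clusters 9 were counted, and 3 of them were past 4-fold between domains, with a median of 2.46, against 16.8% and a median of 1.70 over all genes. Evx1, next to Hoxa13, had 5.05 CPM in males and 5.64 in females and was 8.82-fold higher in the Aldh1a2 domain (14.6 CPM) than in the Scx domain (1.66). Hottip, a long noncoding RNA at the 5′ end of HoxA, was highest in the Aldh1a2 domain (11.1 CPM) and lowest in the Sim1 domain (2.63), the same ends as Hoxa13. Hoxaas3, an antisense RNA of the HoxA cluster, was 7.66-fold higher in the Aldh1a2 than in the Ogn domain. Evx2, next to Hoxd13, had 14.8 and 15.9 CPM and a ratio of 2.89.

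Of the 9 TALE cofactors, homeodomain proteins that bind DNA together with Hox proteins, 3 were past 4-fold, with a median of 2.44. Over all genes 16.8% were past 4-fold, with a median of 1.70, which is the background for each list here. Meis1 was at 238 CPM in the Sim1 domain, where Hoxa13 was lowest, and at 7.85 in the Dlx2 domain, a ratio of 30.4. Meis2 ran from 530 CPM in the Scx domain to 38.7 in the Dlx2 domain, and Pknox2 and Pbx3 had ratios of 9.84 and 3.27. Of 10 genes linked to group 13 function in limb or genital studies, 8 had 100 UMIs and 4 of these were past 4-fold, with a median of 3.73: Aldh1a2 (111-fold, which itself names a domain), Sostdc1 (28.5), Hand2 (21.3) and Enpp2 (4.01). Of the 30 other Hox genes 18 had 100 UMIs, and 13 of these were past 4-fold with a median of 5.05, led by Hoxd8 (11.7), Hoxc12 (at least 11.2, since it had no UMI in the Scx domain), Hoxc8 (6.84) and Hoxb9 (6.64). Many of these other Hox genes had few UMIs, and whether the members differ from them was not tested.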

How the data were processed

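Both libraries were 3′ droplet libraries, processed with Cell Ranger 3.1 against mm10, per the submitters' processing notes. Which annotation version lay behind the counts is not given in the sources used here. Values are raw UMI counts per gene and barcode as the authors deposited them, not normalized. From these counts, cells were kept at 2000 UMIs, 500 genes and 10% mitochondrial UMIs (35965 cells), which removed 373 male and 470 female barcodes for few genes and 922 and 889 for mitochondrial UMIs. Of all UMIs, 110547738 in males and 126274554 in females were in these cells.

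Cells were clustered with scanpy 1.11.5 (1985 variable genes, 7 genes of the Hox loci left out, 30 components, 15 neighbours, Leiden resolution 1, python-igraph 0.11.9) into 24 clusters. Clusters outside the mesenchyme were split again into 17 sub-clusters, named "like" a type where its markers averaged a log2 excess of 2 with at least 3 markers detected, and called mixed where mesenchyme markers passed 30% of the mesenchyme level. A domain needed a mean log2 excess of 0.8 for its genes. Classes and domains were named from marker lists, and all names are rebuilt here and not the authors'. Doublets were scored with Scrublet and kept in the values reported.

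Levels are UMIs summed over a class and library as CPM, with exact Poisson, binomial or conditional 95% intervals (scipy 1.17.1). A count of 0 allows 3 counts. Fold thresholds were 2 between classes, 4 between domains and 1.2 between libraries, over genes with 100 UMIs. Shares of cells used each cell thinned to 2000 UMIs. Co-detection was set against the product of the shares within each domain and library. Likeness used log2 of CPM plus 5 over clusters, among genes with 1000 UMIs, naming the 3 nearest genes outside the Hox family and the nearest Hox gene. Up to 4 genes of each list were named, those with the largest ratio between domains. Coordinates and the homeoboxes of groups 10 to 13 came from GENCODE M21, in which 30934 of the 31053 counted genes (99.6%) were matched by identifier. The scripts were tested on simulated data. The members, lists and thresholds were chosen with earlier results of these data known. Each sex had 1 library, so no test between conditions was made. The alternatives tried were other limits on UMIs and mitochondrial share, removal of doublets, Hox genes in the clustering, a finer resolution, subtraction of free RNA, single libraries, no thinning and other weights and strata.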

Additional observations from a re-analysis of the deposited data

How the results depend on the processing

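The number of members past 4-fold between domains was 1 in the values reported and rose to 2 with at least 4000 UMIs per cell (Hoxa13 5.43, Hoxd9 4.08, where 13.0% of all genes passed), to 2 with the highest doublet scores removed (Hoxa13 10.1, Hoxd9 5.77, with 16.6% of genes) and to 4 over single clusters (26.9% of genes), a setting chosen after seeing the data. The other settings run for it left it at 1. The mean number of members detected per cell, 1.23, was 1.19 with at least 4000 UMIs, 1.08 with at most 5% mitochondrial UMIs, 1.22 in males alone, 1.25 in females alone and 2.74 without thinning. The number of members past 1.2-fold between libraries was 1 in every setting run. The co-detection ratio of Hoxa13 and Hoxd13 without strata, given above, lay outside the range of these settings, which all used strata. With strata it lay between 1.06 and 1.12, with an interval that included 1 only at 5% mitochondrial UMIs (0.870 to 1.37). That last limit kept 2336 cells and 5 of 8 domains, and it moved all 9 library ratios. Subtraction of free RNA moved 33 of 81 class levels beyond counting error. The Ogn domain was not recovered with at least 4000 UMIs or with Hox genes in the clustering. Hoxd9 in mesenchyme, and every member in the classes of under 100 cells, are limited by depth. No paired analysis was possible because each sex had 1 library. The cause of the moved values was not tested.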
